A study of Mus musculus with 32 samples.

Results

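Cholesterol synthesis was described in whole tumors of 2 mouse models of mesothelioma through 7 genes chosen by their symbols, Hmgcs1, Sqle, Idi1, Lss, Cyp51, Insig1 and Srebf2. Of these 7 genes, 5 were measured, out of 39676 genes in all, and Hmgcs1 and Srebf2 were not analysed here. AB1 and AE17 are mesothelioma lines of mouse origin. AB1 cells (500000 per mouse) were grown in female BALB/c mice and AE17 cells (1000000 per mouse) in female C57BL/6 mice, all 8 to 10 weeks of age. The cells were inoculated into the pleural space (intrapleural, IPL, 200 µL) or under the skin of the flank (subcutaneous, SC, 100 µL), and each of the 4 groups held 8 untreated mice whose tumors were taken on day 10. RNA came from whole tissue, so that tumor cells, host cells and any tissue left around the tumor contributed together. Each model is 1 cell line in 1 mouse strain.

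Cells build cholesterol from acetyl-CoA through the mevalonate pathway, which passes over isoprenoid units to squalene, is closed to the first sterol, lanosterol, and ends in a series of sterol conversions. The genes of this pathway are transcribed together by sterol regulatory element-binding proteins (SREBPs). When membranes hold enough sterol, INSIG proteins keep the SREBPs and their escort SCAP in the endoplasmic reticulum, and transcription falls. When sterol is short, SREBPs are carried to the Golgi, cut by the site-1 and site-2 proteases and released to the nucleus. Insig1 is itself an SREBP target and closes this loop. Uptake of low-density lipoprotein particles, the other supply of cholesterol that SREBPs serve, is not analysed here.

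Of the 5 measured genes, Idi1, Sqle, Lss and Cyp51 encode enzymes of this route, in this order, and Insig1 its regulator. On GRCm38, with the GENCODE M21 annotation, Idi1, which isomerizes the isoprenoid unit, lies at chr13:8885501-8892451 on the plus strand. Sqle, the squalene epoxidase, lies at chr15:59315077-59331192 on the plus strand. Lss, which closes squalene epoxide into lanosterol, lies at chr10:76531588-76557138 on the plus strand, and Cyp51, which removes a methyl group from lanosterol, at chr5:4081145-4104746 on the minus strand. Insig1, the sterol-regulated anchor of SCAP, lies at chr5:28071363-28078662 on the plus strand. In this annotation Idi1 overlaps Gm48574, Lss overlaps 4930483K19Rik and Cyp51 overlaps Akap9, and the counts of reads from shared stretches could be affected.

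RefSeq promoters were available for 4 of the 5 genes, and they are shown because the genes varied together from tumor to tumor, as described further on. Each line gives the 250 bases before the RefSeq start (GRCm38.p6), 5′ to 3′ on the strand of the gene, with the CCAAT box, the site of the SREBP partner factor NF-Y, in capitals on either strand. The windows are chr13:8885356-8885605 (plus strand) for Idi1, chr10:76531355-76531604 (plus strand) for Lss, chr5:4104698-4104947 (minus strand) for Cyp51 and chr5:28071162-28071411 (plus strand) for Insig1.
Idi1: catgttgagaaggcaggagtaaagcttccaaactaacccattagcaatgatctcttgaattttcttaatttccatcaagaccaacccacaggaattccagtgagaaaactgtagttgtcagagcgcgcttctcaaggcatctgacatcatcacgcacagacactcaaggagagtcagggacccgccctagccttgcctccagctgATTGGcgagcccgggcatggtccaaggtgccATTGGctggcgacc
Lss: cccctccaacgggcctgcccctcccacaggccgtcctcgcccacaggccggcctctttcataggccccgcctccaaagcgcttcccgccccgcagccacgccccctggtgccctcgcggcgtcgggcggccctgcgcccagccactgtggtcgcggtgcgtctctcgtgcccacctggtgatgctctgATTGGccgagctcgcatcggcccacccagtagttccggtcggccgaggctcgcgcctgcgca
Cyp51: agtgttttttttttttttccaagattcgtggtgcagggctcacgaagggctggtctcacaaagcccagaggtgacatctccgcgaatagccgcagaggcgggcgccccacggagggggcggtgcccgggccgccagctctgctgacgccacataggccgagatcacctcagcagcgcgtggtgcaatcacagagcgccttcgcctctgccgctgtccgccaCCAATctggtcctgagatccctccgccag
Insig1: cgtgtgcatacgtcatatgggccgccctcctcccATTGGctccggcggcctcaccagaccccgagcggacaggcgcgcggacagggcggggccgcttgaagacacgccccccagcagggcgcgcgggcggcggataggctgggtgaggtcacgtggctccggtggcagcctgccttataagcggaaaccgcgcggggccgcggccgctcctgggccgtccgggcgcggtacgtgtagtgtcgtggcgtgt

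All 4 promoters held a CCAAT box, against 37.4% of 32851 promoters of the same length of 300 bases, which take in 50 bases after the start. In Idi1 the box stood 45 and 14 bases before the start and read ATTGG, its complement, at both places. It stood 62 bases before the start in Lss (ATTGG), 29 in Cyp51 (CCAAT) and 216 in Insig1 (ATTGG). The box of the factor Sp1, GGGCGG on either strand, was also present in all 4, against 35.7% of promoters. The sterol regulatory element searched, TCACNCCAC on either strand, was in none of the 4 and in 1.24% of all promoters, so that these exact letters are not within these windows. No match of 1 motif overlapped a match of another. RefSeq places the start of these genes between 17 and 105 bases inside the GENCODE gene, and the windows follow RefSeq.

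Total counts per mouse ranged from 15432258 to 20649645, with group medians of 18934094 in AB1 IPL, 16733862 in AB1 SC, 17151220 in AE17 IPL and 16914309 in AE17 SC tumors. Each of the 5 genes had at least 444 counts in every mouse. The counting error alone gave a coefficient of variation of 1.52% to 3.85% for a gene in a group, and the measured one was 4.67% to 52.8%. Levels are given as CPM, the reads of a gene per 1000000 of the TMM-scaled total, and levels of different genes are compared only as CPM per kilobase of exon. The mesothelial markers Wt1, Upk3b and Krt19 had a median summed level of 1.04 CPM in AB1 IPL, 0.937 in AB1 SC, 8.83 in AE17 IPL and 2.99 in AE17 SC tumors. The highest sums of these groups were 52.2, in AB1 IPL mouse 2, then 2.85, 17.3 and 10.6 CPM. The sequencing lane was not balanced. Lane 3 held the 8 AB1 IPL and 2 AB1 SC tumors, lane 2 the other 6 AB1 SC and 5 AE17 IPL tumors, and lane 1 the other 3 AE17 IPL and 8 AE17 SC tumors.

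The 5 genes kept 1 order of group means, highest in AB1 SC tumors, then AB1 IPL, AE17 SC and AE17 IPL tumors. Per kilobase, Insig1 (62.9 ± 6.69 CPM per kb, SD, n = 8), Idi1 (56.8 ± 9.48) and Cyp51 (56.0 ± 10.2) stood close together in AB1 SC tumors. Sqle followed at 33.7 ± 7.48 and Lss at 11.5 ± 2.19 CPM per kb. In AE17 SC tumors Cyp51 was at 25.5 ± 3.88, Idi1 at 22.2 ± 4.51, Insig1 at 20.5 ± 0.956, Sqle at 18.3 ± 2.30 and Lss at 4.45 ± 0.481 CPM per kb. The annotated exons of Lss together span 10.79 kb, the longest of the 5, which lowers its level per kilobase. AB1 IPL and AE17 SC tumors, neighbors in this order, differ in both model and site and were not compared by a test.

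**Figure D1:**
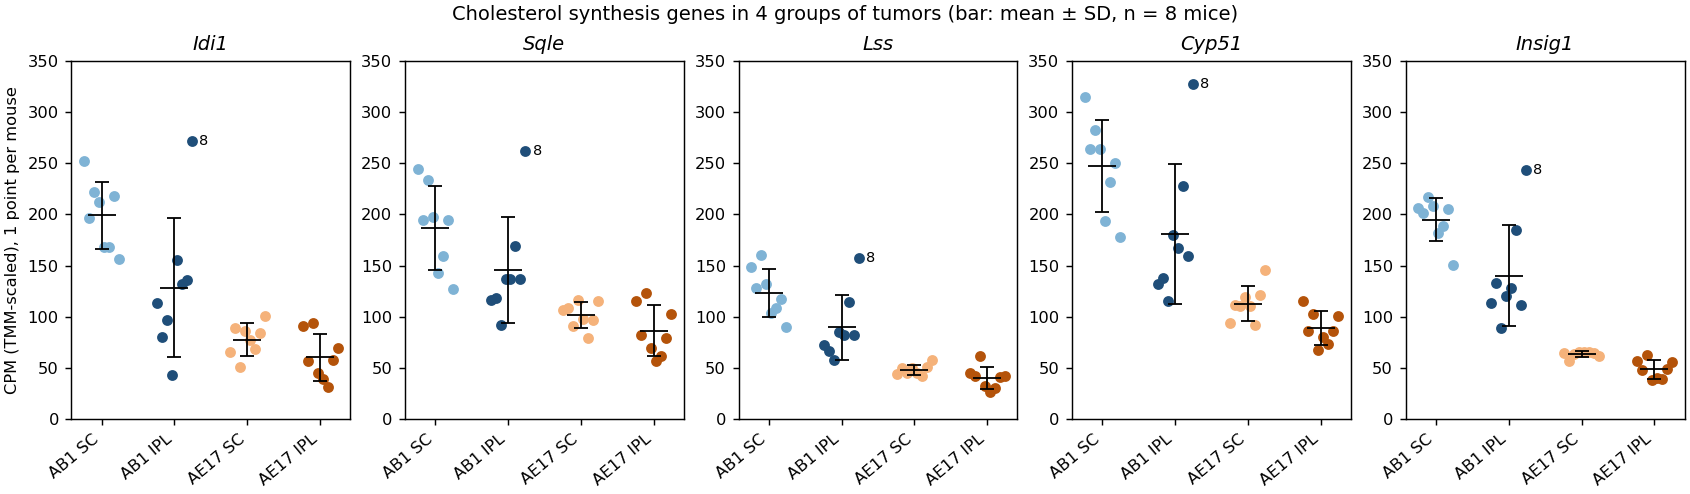
TMM-scaled CPM (vertical axis, linear from 0) of 5 genes in 4 groups of 8 mice, with 1 point per mouse in order of replicate number and bars for the mean ± SD. The means of the 2 AB1 groups lie above those of the 2 AE17 groups, single IPL tumors of the models overlap for each gene except Insig1, and AB1 IPL mouse 8, marked 8, is the highest of its group for each gene.

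The first comparison asked how the level of these genes in pleural tumors differed from that in subcutaneous tumors of the same cell line. In AB1, Insig1 was 1.40-fold lower in IPL than in SC tumors and passed the test, and the other 4 genes, at 1.30-fold to 1.57-fold lower, did not. In AE17, Insig1 was 1.30-fold lower and passed, and the other 4, at 1.17-fold to 1.28-fold lower, did not. The count of genes called lower was therefore 1 of 5 in each model. Among all genes tested, 10.7% were lower in AB1 (1571 of 14645) and 3.13% in AE17 (459 of 14668). A gene passed where its adjusted p, from the edgeR quasi-likelihood test with Benjamini-Hochberg adjustment over all genes, was under 0.05. The median log2 fold change was -0.48 over the 5 genes in AB1 and -0.34 in AE17, and over all genes tested it was 0.00 in each. DESeq2 called 2 of the 5 genes lower in each model, where it called 8.74% of all genes lower in AB1 and 4.99% in AE17. Limma-voom, which weights each tumor by its quality, called 5 in AB1 and 4 in AE17, where it called 16.6% and 12.9% of all genes lower.

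Insig1, which limits SREBP activation when sterol is plentiful, ranged from 89.4 to 243 CPM (median 124) in AB1 IPL tumors and from 151 to 217 CPM (median 203) in AB1 SC tumors. Of the 8 IPL tumors, 6 lay below every SC tumor and 1, mouse 8, lay above every SC tumor. The log2 fold change was -0.49 (SE 0.16, 95% interval -0.83 to -0.15, edgeR adjusted p = 0.0367). This call was near the threshold. It was lost when any 1 of 11 of the 16 AB1 mice was left out, with an adjusted p between 0.0506 and 0.0707 in edgeR, and it was kept without IPL mouse 4, 6 or 8 or SC mouse 5 or 8.

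In AE17, Insig1 ranged from 38.0 to 63.0 CPM (median 48.3) in IPL tumors and from 56.6 to 65.6 CPM (median 64.5) in SC tumors. All 8 IPL tumors lay below the SC median and 7 lay below every SC tumor, and the SC tumors had a coefficient of variation of 4.67%, beside the 3.08% that counting error alone gives. Without SC mouse 2, the lowest, the other 7 SC tumors lay between 62.0 and 65.6 CPM, a coefficient of variation of 1.97%. The log2 fold change was -0.38 (SE 0.09, 95% interval -0.57 to -0.18, edgeR adjusted p = 0.0294). Leaving out IPL mouse 4 or 7 or SC mouse 5 or 6 moved the edgeR adjusted p to 0.0503, 0.0526, 0.0535 and 0.0504.

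Idi1, which converts the isoprenoid unit into its reactive isomer, ranged from 43.1 to 272 CPM (median 123) in AB1 IPL tumors and from 156 to 252 CPM (median 205) in AB1 SC tumors. Here 7 of 8 IPL tumors were below every SC tumor, and mouse 8 was above them all. The log2 fold change, -0.65 (SE 0.25, 95% interval -1.19 to -0.12), was the lowest of the 5 point estimates and did not pass (edgeR adjusted p = 0.0731). In AE17, Idi1 ranged from 30.8 to 93.6 CPM (median 57.4) in IPL and from 50.6 to 101 CPM (median 80.6) in SC tumors. The groups overlapped, with 3 IPL tumors below every SC tumor, and the log2 fold change was -0.36 (SE 0.21, edgeR adjusted p = 0.286).

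Sqle, the epoxidase that commits squalene to sterols, ranged from 91.6 to 262 CPM (median 137) in AB1 IPL and from 127 to 244 CPM (median 195) in AB1 SC tumors. Of the IPL tumors 7 lay below the SC median but only 3 lay below every SC tumor. The log2 fold change was -0.38 (SE 0.18, edgeR adjusted p = 0.155). In AE17 the range was 56.7 to 123 CPM (median 80.8) in IPL and 79.0 to 116 CPM (median 102) in SC tumors. These groups overlapped on both sides, and the log2 fold change was -0.23 (SE 0.15, edgeR adjusted p = 0.338).

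Lss, the cyclase that makes lanosterol, ranged from 57.3 to 157 CPM (median 82.1) in AB1 IPL and from 89.5 to 160 CPM (median 123) in AB1 SC tumors. The log2 fold change was -0.48 (SE 0.18, edgeR adjusted p = 0.0578), with 6 IPL tumors below every SC tumor. In AE17 it ranged from 26.8 to 61.5 CPM (median 41.3) in IPL and from 41.9 to 57.7 CPM (median 47.6) in SC tumors. Of the AE17 IPL tumors 5 lay below and 1 above every SC tumor, at a log2 fold change of -0.26 (SE 0.13, edgeR adjusted p = 0.237).

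Cyp51, the demethylase that acts on lanosterol, ranged from 115 to 328 CPM (median 163) in AB1 IPL and from 178 to 315 CPM (median 257) in AB1 SC tumors. The log2 fold change was -0.47 (SE 0.18, edgeR adjusted p = 0.0750), with 5 IPL tumors below and mouse 8 above every SC tumor. In AE17 it ranged from 67.4 to 115 CPM (median 86.2) in IPL and from 91.5 to 146 CPM (median 110) in SC tumors. Here 5 IPL tumors were below every SC tumor and none above, at a log2 fold change of -0.34 (SE 0.11, edgeR adjusted p = 0.0765).

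A single tumor, AB1 IPL mouse 8, carried the highest level of each of the 5 genes in its group. It stood at 272 CPM for Idi1, 262 for Sqle, 157 for Lss, 328 for Cyp51 and 243 for Insig1, and only for Lss did any SC tumor exceed it. Without this mouse all 5 genes were lower in AB1 IPL than in SC tumors at an adjusted p under 0.05 in edgeR, where 11.1% of 14757 genes were lower. The log2 fold changes without it were -0.90 for Idi1, -0.54 for Sqle, and -0.64 each for Lss, Cyp51 and Insig1, with adjusted p between 0.00136 and 0.0125. The count of 1 of 5 with all 16 mice is the value the design gives, and leaving this mouse out was a choice made with its levels known. Its summed level of 6 skeletal muscle markers was 446 CPM and that of 4 cycling cell markers 1993 CPM, the highest cycling level of its group.

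Markers of other cells moved with the site. All 6 skeletal muscle markers rose in AB1 IPL tumors (edgeR), from a summed level of 53.7 to 344 CPM in SC to 104 to 3760 CPM in IPL tumors, and in AE17 none of the 6 passed in edgeR, DESeq2 or limma-voom, and none had an unadjusted p under 0.05 (56.9 to 656 CPM in IPL, 43.8 to 971 CPM in SC tumors). The summed level of 4 leukocyte markers was 210 to 327 CPM in AB1 IPL and 351 to 586 CPM in AB1 SC tumors, with Ptprc, Cd3e and Cd68 lower and Cd79a higher in edgeR. In AE17 IPL tumors Cd79a, a B cell gene, was also higher (log2 fold change 4.07, edgeR adjusted p = 0.0338). Cd79a was highest there in mice 5 and 8, with 696 and 509 counts beside 4 to 40 in the other 6, and DESeq2 called none of the 4 leukocyte markers there. Of the heart muscle markers, 2 were tested in edgeR. Myl4 was higher in IPL tumors of AB1 (2.97, edgeR adjusted p = 0.000159) and AE17 (2.05, edgeR adjusted p = 0.0231), and Tnni3 was lower in AB1 (-0.88, edgeR adjusted p = 0.00739) and did not pass in AE17. The adipocyte gene Adipoq was higher in AB1 (3.26, edgeR adjusted p = 0.0198), where DESeq2 called 3 of 4 adipocyte markers higher and limma-voom none of 3. Of the mesothelial markers DESeq2 called 1 of 3 higher in AB1 IPL and 2 of 3 in AE17 IPL tumors, limma-voom 0 of 1 and 1 of 1, and edgeR 0 of 1 in each, with no unadjusted p under 0.05. The summed macrophage markers, of which Mrc1 and C1qa were lower, were 888 to 1640 CPM in AB1 IPL and 1164 to 1993 CPM in AB1 SC tumors. None of the 4 cycling cell markers passed in either model in edgeR, DESeq2 or limma-voom, with no unadjusted p under 0.05 in edgeR, and their sum was 647 to 1993 CPM in AB1 IPL and 1436 to 1954 CPM in AB1 SC tumors. With the summed muscle level as a covariate the AB1 log2 fold changes were -0.43 to -0.23 and none of the 5 genes passed (edgeR adjusted p 0.391 to 0.594), where 3.43% of all genes were lower. In AE17 Cyp51 and Insig1 passed with this covariate, where 3.71% were lower. In these bulk tissues, fewer cells that express a gene and less RNA of it per cell cannot be told apart.

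The site was also tied to the lane. Within lane 3 alone, with 8 AB1 IPL and 2 AB1 SC tumors, the log2 fold changes of the 5 genes were -0.86 to -0.59, all lower in IPL, and none passed (edgeR adjusted p 0.374 to 0.511), where 0.994% of all genes were lower. Within lane 1 alone, with 3 AE17 IPL and 8 AE17 SC tumors, they were -0.56 to -0.32 and none passed (edgeR adjusted p 0.159 to 0.340), where 0.0260% of all genes were lower. With the lane as a covariate none passed in either model, where 1.91% of all genes were lower in AB1 and 0.00682% (1 gene) in AE17. So few genes passed in these fits that a count of 0 among 5 says little about the 5 genes. The direction within a lane was that of the full comparison for all 5 genes in both models. The 2 comparisons share tumors, as lane 3 held all 8 AB1 IPL and lane 1 all 8 AE17 SC tumors. The 5 genes also vary together, so their shared direction is not 5 separate observations.

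Whether the 2 models differed in the effect of the site was tested as an interaction in 1 fit of the 32 mice. None of the 5 genes passed in edgeR, where 20.5% of all genes did, and none had an unadjusted p under 0.05. The differences, AB1 less AE17, were -0.13 for Sqle (95% interval -0.63 to 0.38), -0.27 for Idi1 (-0.97 to 0.43), -0.20 for Lss (-0.68 to 0.27), -0.11 for Cyp51 (-0.57 to 0.35) and -0.09 for Insig1 (-0.49 to 0.31). DESeq2 and limma-voom also called none of the 5, where they called 19.1% and 29.4% of all genes. The intervals leave room for a difference between the models at least as large as the site effects themselves.

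**Figure D2:**
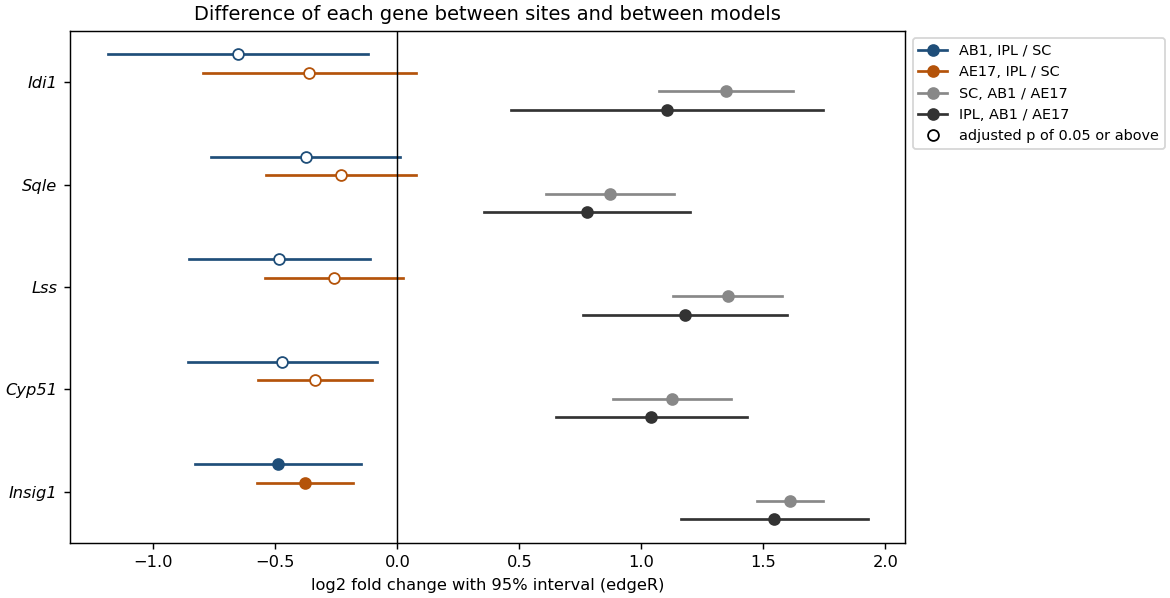
Log2 fold change (horizontal axis) of each gene with its 95% interval from edgeR, for IPL against SC tumors within AB1 and within AE17 and for AB1 against AE17 within each site, with open points where the adjusted p was 0.05 or above. The site differences lie between -0.65 and -0.23 and the model differences between 0.78 and 1.61.

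The comparison between the models at 1 site gave larger differences, as it did for genes in general. Between models the median absolute log2 fold change over all genes tested was 0.36 in SC and 0.41 in IPL tumors. Between sites it was 0.19 in AB1 and 0.13 in AE17. All 5 genes were higher in AB1 than in AE17 tumors at both sites, where 31.2% of genes in SC and 30.5% in IPL tumors were higher. In SC tumors the fold was 3.05 for Insig1, 2.56 for Lss, 2.54 for Idi1, 2.18 for Cyp51 and 1.83 for Sqle (edgeR adjusted p between 6.21e-13 and 8.90e-06). For each of the 5 genes every AB1 SC tumor lay above every AE17 SC tumor. How many of all genes separate the models this fully was not counted at either site. In either direction 63.7% of all genes passed in SC and 59.1% in IPL tumors. In IPL tumors the fold was 2.92 for Insig1, 2.27 for Lss, 2.15 for Idi1, 2.06 for Cyp51 and 1.72 for Sqle (edgeR adjusted p between 1.08e-06 and 0.00464). Only Insig1 separated the 2 IPL groups fully, with its lowest AB1 value at 89.4 CPM and its highest AE17 value at 63.0 CPM. Of the 8 AB1 IPL tumors 7 lay above every AE17 IPL tumor for Lss and Cyp51, 6 for Idi1 and 5 for Sqle. The lane also differed between the models. Only lane 2 held both, as AB1 SC and AE17 IPL tumors, so no lane held both models at the same site. An adjustment for lane therefore links the models at a site by way of tumors of the other site. With the lane as a covariate in 1 fit of all 32 mice, a fit added once the data had been seen, the log2 fold changes stayed above 0 but fewer genes passed. In SC tumors they were 0.66 to 1.58 and 3 of 5 passed (Insig1, Lss and Cyp51, edgeR adjusted p 1.66e-05 to 0.00878), where 15.4% of all genes were higher. In IPL tumors they were 0.39 to 1.44 and 2 of 5 passed (Insig1 and Lss, edgeR adjusted p 0.000400 and 0.0467), where 16.5% were higher. Cell line, mouse strain and number of cells all differ between the models and cannot be told apart.

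Idi1 was the most variable of the 5 genes within IPL tumors, with a coefficient of variation of 52.8% in AB1 IPL and 38.1% in AE17 IPL, against 16.7% and 20.4% in the SC groups. Insig1 had a coefficient of variation of 35.6% in AB1 IPL and 18.9% in AE17 IPL, against 10.6% and 4.67% in the SC groups. For each of the 5 genes the coefficient of variation was higher in the IPL than in the SC tumors of a model, which is a description without a test. In AB1 this order rested in part on IPL mouse 8. Without it the coefficient of variation in IPL tumors was 18.7% for Sqle, under the 22.2% of SC tumors, and 22.4% to 35.4% for the other 4 genes, still above those of SC tumors. AB1 IPL mouse 4 departed from the pattern, with the lowest Idi1 level of its group, 43.1 CPM, beside values near the group medians for Sqle (137 CPM), Lss (85.3 CPM) and Insig1 (120 CPM). Its cycling cell markers were also the lowest of the group, at 647 CPM, followed by mouse 2 at 840 CPM, and the other 6 tumors were at 1464 to 1993 CPM. Without mice 2 and 4, an omission added once the data had been seen, the AB1 log2 fold changes were -0.45 to -0.33 and none of the 5 genes passed (edgeR adjusted p 0.0872 to 0.287), where 2069 of 14814 genes were lower.

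The genes varied together among tumors of the same group. After the group means of log2 CPM were taken out, all 5 genes lay on the same side of their group mean in 19 of 32 mice, all above in 10 and all below in 9. By group this held in 7 AB1 SC, 5 AB1 IPL, 6 AE17 IPL and 1 AE17 SC tumors. The 10 pairs of genes had Pearson's r between 0.65 and 0.95 (median 0.85) and Spearman's rho between 0.63 and 0.94 over 32 mice. All 10 passed within-group permutation tests (100000 permutations, two-sided, Benjamini-Hochberg adjusted over the 10 pairs, p between 2e-05 and 0.00369 for r, where 2e-05 is the smallest these permutations gave after adjustment). Between all pairs of 15681 tested genes the median r was -0.01 and the 99th percentile 0.75.

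The closest pair was Sqle and Lss, the epoxidase and the cyclase that follows it, with r = 0.95 and rho = 0.92 (n = 32, permutation p = 1e-05 for both, the smallest possible, adjusted p = 2e-05 and 1.67e-05). Without the 2 mice farthest from the median of Sqle, AB1 IPL mouse 8 and AE17 IPL mouse 3, r was 0.92. Lss and Cyp51, the next step, had r = 0.90 and rho = 0.94, and r was 0.90 without the 2 farthest mice. The least close pair was Idi1 and Insig1, with r = 0.65 and rho = 0.63 (n = 32, permutation p = 0.00369 and 0.00073, adjusted p = 0.00369 and 0.00073). Without AB1 IPL mice 4 and 8, r of this pair was 0.56 (adjusted permutation p = 0.00412). All 10 pairs passed also without the 2 farthest mice, with r between 0.56 and 0.92, and with the means of each group within each lane taken out, with r between 0.65 and 0.94.

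**Figure D3:**
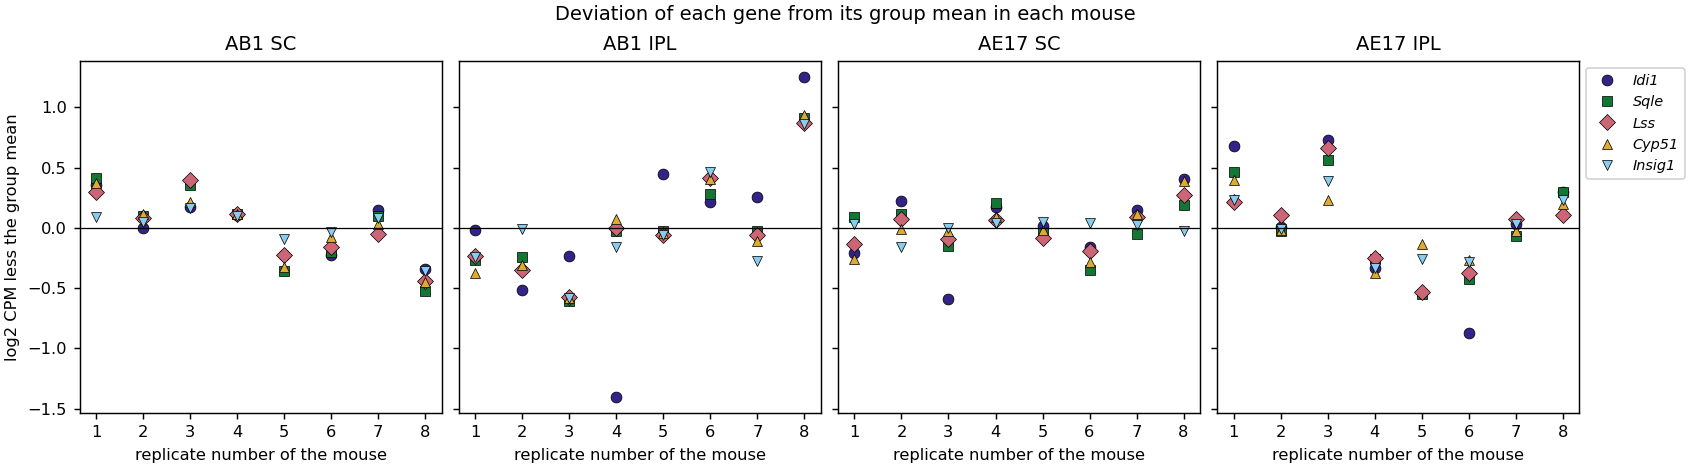
Deviation of log2 CPM from the group mean (vertical axis) for 5 genes in each mouse (horizontal axis, replicate number, which carries no order), in 4 panels for the 4 groups. The 5 symbols of a mouse lie close together in most tumors, all above 0.86 in AB1 IPL mouse 8, and Idi1 alone lies at -1.40 in AB1 IPL mouse 4.

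Over the same 32 mice, the genes whose deviations followed the mean of the 5 most closely were sterol genes for the most part. Of the 10 closest among all genes tested, 8 are named here. They were Msmo1 (r = 0.96), Nsdhl (0.90), Sc5d (0.89) and Hsd17b7 (0.89), which act after lanosterol, Fdps (0.89) and Mvd (0.89), which act before squalene, Stard4 (0.87), a carrier of sterol between membranes, and Lrp8 (0.85), a receptor for apolipoprotein E. These r values describe genes picked for being highest and carry no test. Of the genes that export cholesterol, Abcg1 (r = -0.44) and Abca1 (r = -0.30) had negative values, as had Nr1h3 (r = -0.44), the oxysterol receptor LXRα. Insig2, the relative of Insig1 that is not driven by SREBPs in the same way, had r = -0.31, and Srebf1, which encodes SREBP-1, had r = 0.03.

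The mean deviation of the 5 genes was also set beside depth and the marker sums, as a description with no test. With the total count r was 0.08 and rho 0.03, with the cycling cell markers 0.53 and 0.60, and with the lung epithelium markers 0.25 and 0.16. The other 8 marker sums had negative values. They were -0.51 and -0.46 for liver, -0.48 and -0.58 for heart muscle, -0.48 and -0.49 for adipocytes, -0.38 and -0.36 for macrophages, -0.38 and -0.44 for mesothelium, -0.33 and -0.37 for leukocytes, -0.31 and -0.37 for skeletal muscle and -0.16 and -0.26 for epidermis. The liver and lung epithelium sums were at or under 5.11 CPM in every tumor. The part of cell content in these shared deviations was not tested.

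The rest of the pathway was followed in lists of genes by role. Before squalene, of 5 genes tested none passed in AB1 in edgeR, with all 5 fold changes below 0 and a median log2 fold change of -0.32. Of these, 2 had an unadjusted p under 0.05, and DESeq2 called 0 and limma-voom 5 lower. Among all genes in AB1, edgeR called 10.7% lower, DESeq2 8.74% and limma-voom 16.6%. Mvd, which makes the isoprenoid unit that Idi1 acts on, was at -0.48 (SE 0.19, edgeR adjusted p = 0.0765) in AB1 and was lower in AE17 at -0.48 (SE 0.10, edgeR adjusted p = 0.0136), the only gene of the list that passed there in edgeR. In AE17, 3 of the 5 had an unadjusted p under 0.05 in edgeR, and DESeq2 called 2 and limma-voom 3 lower. Among all genes in AE17, edgeR called 3.13% lower, DESeq2 4.99% and limma-voom 12.9%. Pmvk, the kinase before it, was at -0.34 and -0.22, Mvk at -0.09 and -0.33 and Fdps, which makes farnesyl units, at -0.32 and -0.15, and none of these passed.

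After lanosterol, 3 of 9 genes were lower in AB1 IPL tumors and none was higher, with all 9 fold changes below 0 and a median of -0.31, beside the 10.7% of all genes that were lower. DESeq2 called 4 and limma-voom 7 of the 9 lower, where they called 8.74% and 16.6% of all genes lower. The 3 were Msmo1, a sterol methyl oxidase, at -0.75 (SE 0.21, edgeR adjusted p = 0.0136), Nsdhl, which acts in the same demethylation, at -0.43 (SE 0.14, edgeR adjusted p = 0.0331), and Lbr, a sterol reductase that also binds the nuclear lamina, at -0.31 (SE 0.08, edgeR adjusted p = 0.0139). Sc5d, a desaturase, was at -0.45 and did not pass (edgeR adjusted p = 0.0505). In AE17 none of the 9 passed in edgeR (1 had an unadjusted p under 0.05), and DESeq2 called 0 and limma-voom 3 lower. Among all genes in AE17, edgeR called 3.13% lower, DESeq2 4.99% and limma-voom 12.9%. Msmo1, Nsdhl, Lbr and Sc5d were at -0.44, -0.22, -0.04 and 0.01 in AE17. The Nsdhl call in AB1 was lost without any 1 of 10 of the 16 mice.

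Of 5 genes that encode, retain, escort or cut SREBPs, 1 was higher in AB1 IPL tumors, beside 12.3% of all genes. It was Mbtps1, the site-1 protease, at 0.30 (SE 0.07, edgeR adjusted p = 0.00509). In AE17 it was at -0.13 without passing, and the difference between the models passed (0.44, edgeR adjusted p = 0.000536). Scap was at 0.14 and -0.08, Insig2 at -0.04 and 0.24 and Mbtps2, the site-2 protease, at -0.28 and -0.12, none of which passed in edgeR. In AE17, where edgeR and DESeq2 called none of the 5, 2 had an unadjusted p under 0.05 in edgeR and limma-voom called 1 higher and 1 lower. Of 6 other SREBP targets, Stard4 was lower in AB1 IPL tumors at -0.54 (SE 0.16, edgeR adjusted p = 0.0226) and Acss2, which makes acetyl-CoA from acetate, was higher at 0.34 (SE 0.10, edgeR adjusted p = 0.0198). In AB1 DESeq2 called 1 of the 6 lower and 1 higher, and limma-voom 4 lower and 1 higher. The shares of all genes called lower in AB1 were 10.7% in edgeR, 8.74% in DESeq2 and 16.6% in limma-voom. None of the 6 passed in AE17 in edgeR (1 had an unadjusted p under 0.05), where DESeq2 and limma-voom each called 1 lower. Among all genes in AE17, edgeR called 3.13% lower, DESeq2 4.99% and limma-voom 12.9%.

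Genes of cholesterol export and storage were lower in AB1 IPL tumors for 4 of 6, beside 10.7% of all genes. DESeq2 called 4 and limma-voom 5 lower, beside 8.74% and 16.6% of all genes. Abcg1, an exporter, was at -0.85 (SE 0.13, edgeR adjusted p = 0.000163), Abca1, another exporter, at -0.61 (SE 0.19, edgeR adjusted p = 0.0297), and Soat2 and Soat1, which esterify cholesterol for storage, at -0.69 (edgeR adjusted p = 0.00547) and -0.26 (edgeR adjusted p = 0.0247). The Abca1 call was lost without any 1 of 4 mice and the Soat1 call without any 1 of 3. In AE17 none of the 6 passed in edgeR (1 had an unadjusted p under 0.05), DESeq2 called 1 and limma-voom 2 higher, with Abcg1 at 0.06, Abca1 at -0.25, Soat2 at 0.50 and Soat1 at 0.28. The difference between the models passed for Abcg1 (-0.89), Soat2 (-1.17) and Soat1 (-0.52), with edgeR adjusted p of 0.00846, 0.00944 and 0.00246. In that test 20.5% of all genes passed in either direction and 8.62% with a difference below 0. The AB1 IPL tumors, in which these genes were lower, are those with lower macrophage and leukocyte markers, and the part of these cells was not tested.

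**Figure D4:**
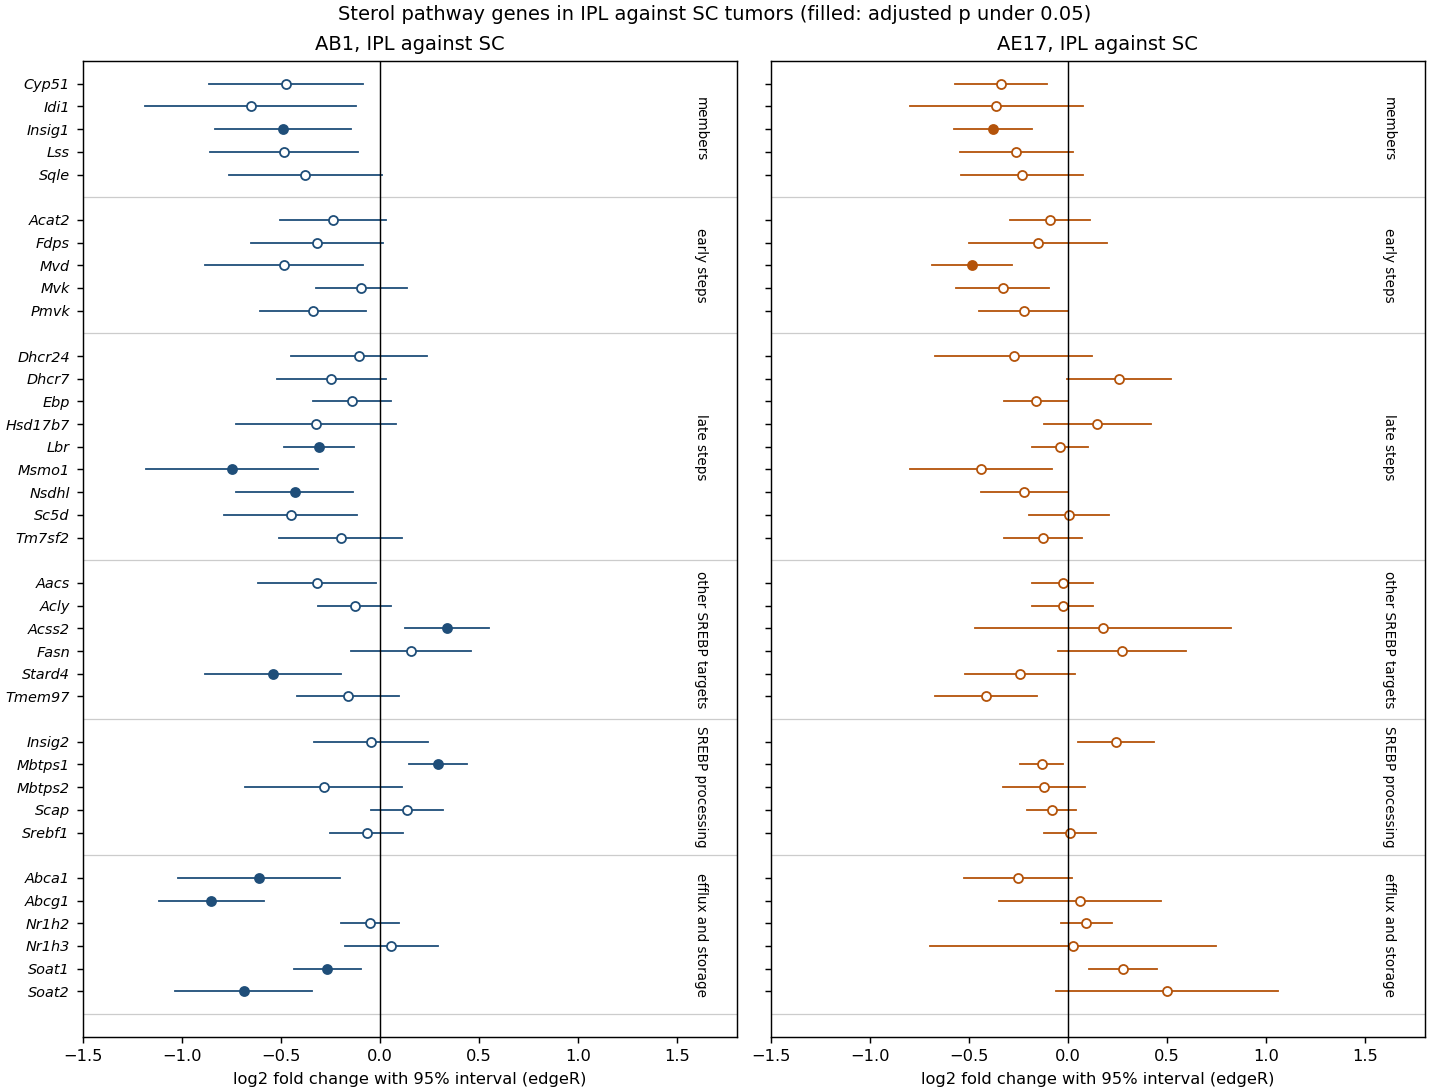
Log2 fold change (horizontal axis) with 95% interval from edgeR for IPL against SC tumors, in AB1 (left) and AE17 (right), for the 5 genes (members) and for the lists of the rest of the pathway (vertical axis). Filled points passed at an adjusted p under 0.05, and genes of synthesis lie at or below 0 in AB1 throughout.

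Most of the rest of the synthesis pathway was also higher in AB1 than in AE17 tumors, beside 31.2% of all genes in SC and 30.5% in IPL tumors. The 5 genes before squalene were all higher in AB1 than in AE17 tumors at both sites, with a median log2 fold change of 0.99 in SC and 1.03 in IPL tumors, beside 1.35 and 1.11 for the 5 genes described above. After lanosterol, 7 of 9 were higher at both sites, and Hsd17b7 was lower, at -0.48 in SC and -0.91 in IPL tumors. Sc5d was at 0.00 in SC tumors and lower in IPL tumors, at -0.41 (edgeR adjusted p = 0.0329). With the lane as a covariate in the fit of all 32 mice, 5 of 5 genes before squalene were higher in SC and 4 in IPL tumors, and after lanosterol 6 of 9 in SC and 3 in IPL tumors, where Hsd17b7 and Sc5d were lower, beside 15.4% of all genes higher in SC and 16.5% in IPL tumors in that fit. Over all genes tested the median was 0.00 in SC and 0.02 in IPL tumors. Scap, the SREBP escort, and Srebf1 were higher in AB1 at both sites by 0.38 to 0.75, and Acss2 by 2.11 in SC and 2.31 in IPL tumors. Mbtps1 was lower in AB1 in SC tumors, at -0.14 (edgeR adjusted p = 0.0139), and higher in IPL tumors, at 0.33 (edgeR adjusted p = 0.000778). With the lane covariate Scap (0.44 and 0.56) and Acss2 (1.34 and 2.00) passed at both sites, and Srebf1 (0.22 and 0.15) and Mbtps1 (-0.19 and 0.25) at neither.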

How the data were processed

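RNA-seq counts of 32 tumors were used. According to the methods, the authors mapped 50 bp single-end reads with HISAT2 (version 2.0.4 in the submitters' processing notes) and counted reads per gene, and they deposited raw counts with no normalization. Whether the counting used strand is not given in the sources used here. The labels say that tumors were harvested with surrounding tissue, and the methods that lungs and other tissue were removed. Gene identifiers (39495 of 39676) were matched to GENCODE M21 without their version.

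Groups and replicate numbers came from sample titles. In R 4.3.3 with edgeR 4.0.16, genes passing filterByExpr were tested with TMM factors and robust quasi-likelihood F tests, two-sided, with Benjamini-Hochberg adjustment over all genes tested, within each model, within each site and, for the interaction, over all 32 mice. DESeq2 1.42.0, the tool named in the methods, and limma-voom (limma 3.58.1) were alternatives, with other size factors, filters, covariates and omissions. The muscle covariate, the omission of AB1 IPL mice 2 and 4, the lane covariate in 1 fit of all 32 mice between models and the lane means in correlations were added after seeing the data. Correlations used log2 CPM (prior count 2) less the group mean, with 100000 permutations within groups. Replicate numbers were checked for pairing and did not pair the mice. Scripts were tested on simulated data, and plots were drawn with matplotlib 3.10.9.

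The members, gene lists and tests were chosen with earlier results of these data known. Named genes are the members, up to 4 genes of each list with the smallest p in either model, and genes of the most similar pattern. Srebf1, Nr1h3 and single marker genes are named outside this rule, picked once their values were known. An item of the lists is not reported here. The other marker lists, of heart muscle, adipocytes, lung epithelium, epidermis and liver, are given with the closing values.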

Additional observations from a re-analysis of the deposited data

Results flagged for a closer look

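Of 20 sets of 8 tumors, 1 for each gene in each group, 2 held a tumor whose distance from the nearest of the others was large beside the whole range of its group, where chance flags about 1 set in 20. Sqle in AB1 IPL mouse 8 was at 262 CPM, and the gap to the next tumor was 0.546 of the range. Insig1 in AE17 SC mouse 2 was at 56.6 CPM, the lowest of a narrow group, with a gap of 0.600 of the range. Without AE17 SC mouse 2 the Insig1 difference between AE17 IPL and SC tumors was -0.40 on the log2 scale (edgeR adjusted p = 0.0386).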

How the results depend on the processing

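The lower levels in IPL tumors kept their direction for all 5 genes in both models under every alternative run. The number of the 5 genes past the threshold varied, as did the share of all genes called lower. In AB1 it was 1, against 2 with DESeq2 or with at least 10 counts in every mouse (10.6% of genes lower), 5 with limma-voom, 3 with all 32 mice in 1 fit (11.3%), and 0 with no filter (5.55%), with the lane as a covariate, in lane 3 only, with the muscle covariate, without IPL mice 2 and 4, or where a call needed a log2 fold change of 0.5 or more. In AE17 it was 1, against 2 with DESeq2 or the muscle covariate, 4 with limma-voom, and 0 with the lane as a covariate, in lane 1 only, with all 32 mice (4.66%) or where a call needed 0.5 or more. Leaving out each mouse in turn gave 0 to 5 in AB1 and 0 to 2 in AE17, and the mice that changed a count upwards were AB1 IPL mouse 8 (5 genes), AB1 IPL mouse 6 and SC mouse 8 (2 each) and AE17 IPL mouse 1 and SC mouse 1 (2 each). The cause of these changes was not tested. The interaction gave 0 in every alternative run. The comparisons between models gave 5 of 5, except with the lane as a covariate in 1 fit of all 32 mice, where 3 passed in SC and 2 in IPL tumors.

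Same-numbered mice of a model did not deviate together (mean correlation -0.12 in AB1 and 0.07 in AE17), so replicate numbers name mice without pairing them. With the replicate number as a block, 0 of 5 genes passed in AB1 (8.08% of all genes lower), 1 in AE17 (2.30%), 0 in the interaction (2823 of 15681 genes in either direction) and 5 in each comparison between models. Counting error alone gave a coefficient of variation of at most 3.85%, and for Insig1 in AE17 SC tumors it was 3.08%, beside a measured 4.67%.

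Other pathway genes, none of them past the threshold in edgeR with all mice of the model named, turned their direction under some alternatives. In AB1, Insig2 was at 0.021 with limma-voom, 0.0149 with the lane covariate, 0.129 with the muscle covariate and -0.126 to 0.0463 with each mouse left out, and Scap was at -0.0342 in lane 3 only. In AE17, Sc5d was at -0.0037 with limma-voom, -0.0039 with no filter, -0.0077 with the replicate block, -0.0366 with the lane covariate or in lane 1 only, -0.0213 with the muscle covariate and -0.0407 to 0.0543 with each mouse left out. Acss2 was at -0.15 with limma-voom, -0.0606 with the replicate block, -0.35 with the lane covariate or in lane 1 only and -0.33 to 0.26 with each mouse left out. Abcg1 was at -0.0246 with limma-voom and -0.0593 to 0.15 with each mouse left out, and Aacs at -0.0802 to 0.0029.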

Other observations

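The remaining marker lists had the following summed levels. Lung epithelium markers reached at most 1.41 CPM in AB1 IPL and 3.64 CPM in AE17 IPL tumors. Epidermis markers reached 22.6 CPM in 1 AE17 SC tumor and at most 4.02 CPM in AE17 IPL tumors, and liver markers stayed at or under 5.11 CPM in AB1 IPL tumors, the highest of the 4 groups. Heart muscle markers had medians of 32.8 CPM in AB1 IPL, 6.91 in AB1 SC, 15.5 in AE17 IPL and 6.57 in AE17 SC tumors. Adipocyte markers had medians of 10.4 CPM in AB1 IPL and 3.50 in AB1 SC tumors, and 1 AE17 IPL tumor stood at 301 CPM beside a group median of 0.929.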
